A study of Homo sapiens with 2 samples.

Results

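Antisense and intergenic long noncoding RNAs were described in cells of the human colon carcinoma line RKO after siRNA to SRSF1 and after a control siRNA. Rows were chosen by name, an ending in -AS with or without a number for antisense RNAs or a start of LINC with a number for intergenic ones, and by a mean over the 2 libraries of at least 0.5 FPKM (fragments divided by gene model length and library total). The name fitted 1029 of the 40205 rows of the table, of which 578 were listed at 0 in both libraries. The level minimum left 155 members, 114 antisense and 41 LINC rows, among 12397 rows of any kind at or above it. Cells of both groups were collected 48 hours after transfection, and each group had 1 library, so no difference has a replicate check and no p-value is given. The labels give neither the sequence nor the number of siRNAs, and RKO is a single line. Members just inside the minimum were LINC00266-1, at 0.406 FPKM with SRSF1 siRNA and 0.598 FPKM with control siRNA, and INTS6-AS1, at 0.585 and 0.439 FPKM in the same order. Just outside were PTGES2-AS1, at 0.458 FPKM with SRSF1 siRNA and 0.534 FPKM with control siRNA, and WDFY3-AS2, at 0.400 and 0.587 FPKM in the same order.

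Antisense RNAs are transcribed from the strand opposite a named gene, often starting next to its promoter and running away from it, or running into it. LINC RNAs have their own loci between protein-coding genes, and some have since been found to encode small proteins. Many of both kinds are capped, spliced and polyadenylated, are present at few copies per cell, and are turned over rapidly by the nuclear exosome. SRSF1 is a serine/arginine-rich protein that binds purine-rich sites in transcripts and acts in splicing and later steps of RNA metabolism.

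SRSF1 itself was at 32.7 FPKM with SRSF1 siRNA and 103 FPKM with control siRNA, a level 31.7% of control (30.6 to 32.8%). This interval and those below are exact 95% intervals computed from whole fragments recovered from the FPKM values, and they cover counting error only. The fragment totals behind the values were 23852089 with SRSF1 siRNA and 23138519 with control siRNA. Of the sequenced reads, 75.9% of 61879680 mapped in the SRSF1 siRNA library and 70.4% of 64651910 in the control library, and mitochondrial reads made up 8.39% and 6.60% of mapped reads in the same order. Of 8 colon or epithelial markers, 4 were detected. The keratin genes KRT18 and KRT8 were at 82.2 and 4.43 FPKM with SRSF1 siRNA and at 88.4 and 3.62 FPKM with control siRNA. The adhesion molecule gene EPCAM and the intestinal transcription factor gene CDX2 were at 18.2 and 4.90 FPKM with SRSF1 siRNA and at 17.2 and 5.63 FPKM with control siRNA. The other 4, CDH1, VIL1, KRT20 and LGR5, were listed at 0 in both libraries. Markers of leukocytes, fibroblasts, endothelium and red cells were at 0 or under 0.1 FPKM.

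Most members were lower with SRSF1 siRNA. Differences are given as log2(FPKM + 0.1) with SRSF1 siRNA minus the same with control siRNA, a scale that understates the change of rows near the minimum. The median over the 155 members was -0.39, with 117 of them below 0 and a range of -2.21 to 1.08, against a median of -0.07 over all 12397 rows, of which 60.2% were below 0. At least 1.5-fold lower were 53 of 155 members (34.2%), where 8.52% of all rows were. At least 1.5-fold higher were 3 members, where 3.06% of all rows were. Members were less abundant, with a median level of 1.70 FPKM against 7.91 FPKM over all rows. Between 0.5 and 1 FPKM, 37.2% of members and 22.3% of all rows were at least 1.5-fold lower. The shares were 38.6% and 18.2% between 1 and 2 FPKM, 36.4% and 10.8% between 2 and 5, and 16.7% and 4.20% from 5 up. At 2-fold, 20 members were lower and 1 was higher, against 1.98% and 1.06% of all rows. The interval of the plain FPKM ratio lay below 1 for 72 members (46.5%) and above 1 for 10 (6.45%), against 32.6% and 18.3% of all rows. These shares depend on depth, and the median of control fragments was 97 over members and 505 over all rows. Between 0.5 and 1 FPKM they were 16.3% and 4.65% of members, against 13.4% and 6.59% of all rows. Between 2 and 5 FPKM they were 54.5% and 9.09% of members, against 29.3% and 12.7% of all rows. Of the 53 members at least 1.5-fold lower, 43 also had their interval below 1. In bulk RNA of this kind, fewer cells with a transcript and less of it per cell cannot be told apart.

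The antisense median was -0.43, with 44 of 114 rows (38.6%) at least 1.5-fold lower and 1 higher. The LINC median was -0.32, with 9 of 41 rows (22.0%) lower and 2 higher. Protein-coding mRNA rows of the same minimum had a median of -0.06, with 6.19% of 10661 rows at least 1.5-fold lower. The table's other miscRNA rows, its class for noncoding transcripts, had a median of -0.14, with 21.9% of 636 rows at least 1.5-fold lower. The LINC share was therefore close to that of other noncoding rows, and the antisense share was above it. The interval of the ratio lay below 1 for 46.5% of antisense and 46.3% of LINC rows. It lay above 1 for 2 antisense rows (1.75%) and 8 LINC rows (19.5%), against 18.3% of all rows. By this measure rises were few among antisense rows only. No test of the difference between classes is possible with 1 library per group.

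**Figure D1:**
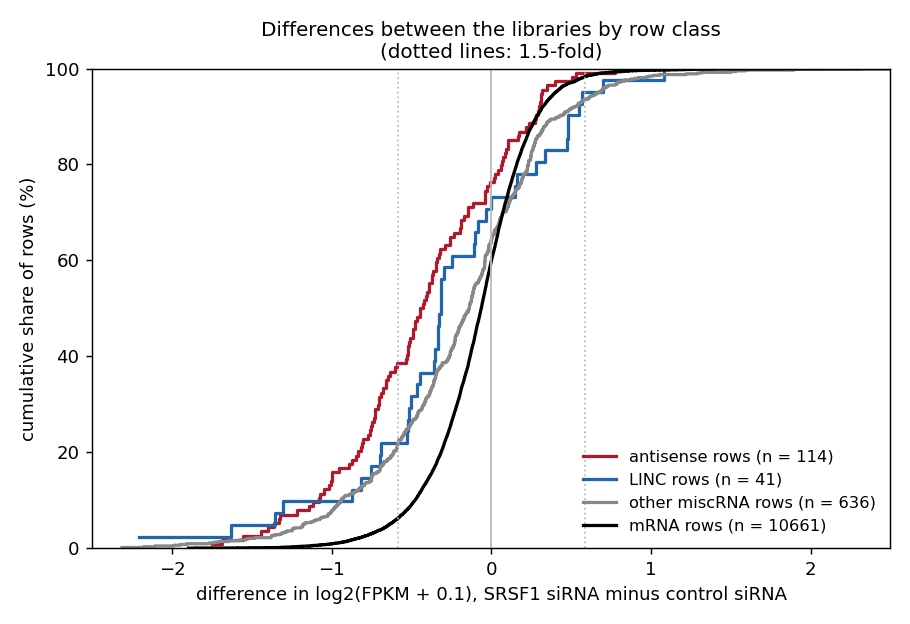
Cumulative share of rows (%) against the difference between libraries on the log2(FPKM + 0.1) scale (SRSF1 siRNA minus control) for antisense, LINC, other miscRNA and mRNA rows with a mean of at least 0.5 FPKM; dotted lines mark 1.5-fold. The antisense curve lies furthest left over most of its range (median -0.43), followed by LINC (-0.32), other miscRNA (-0.14) and mRNA rows (-0.06).

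Members had a lower median than mRNA rows in each class of level. Between 0.5 and 1 FPKM the median difference was -0.35 over 43 members, -0.26 over other miscRNA rows and -0.13 over mRNA rows. Between 2 and 5 FPKM it was -0.43 over 44 members, -0.06 over other miscRNA rows and -0.10 over mRNA rows. At 5 FPKM and over it was -0.32 over 24 members, 21 of them below 0, and -0.05 over mRNA rows. Gene model lengths were recovered with the fragments as the smallest that fit, so a true length may be a multiple. By recovered length, the median was -0.49 over the 35 members under 1000 bases and -0.33 over the 50 from 1000 to 2000. It was -0.49 over the 50 from 2000 to 4000 and -0.05 over the 20 above 4000 bases. Over all rows the medians for the same lengths were -0.12, -0.13, -0.08 and 0.00. With the trend of all rows over length and level removed, an alternative chosen after seeing the data, the members' median was -0.26 and 34 were at least 1.5-fold lower.

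Of the 3 most abundant members LINC00657 differed least. LINC00657, now named NORAD, a cytoplasmic RNA that binds Pumilio proteins, was at 128 FPKM with SRSF1 siRNA and 135 FPKM with control siRNA, a ratio of 0.945 (0.925 to 0.965). LINC00998, since found to encode the membrane microprotein SMIM30, was at 103 and 128 FPKM in the same order, a ratio of 0.802 (0.762 to 0.844). C17orf76-AS1, now SNHG29, a host gene of small nucleolar RNAs, was at 96.4 FPKM with SRSF1 siRNA and 115 FPKM with control siRNA. All 3 were lower with SRSF1 siRNA by less than 1.5-fold, and they held 327.0 of the members' FPKM with SRSF1 siRNA and 378.8 with control siRNA. The other 152 members summed to 401.5 FPKM with SRSF1 siRNA and 520.8 FPKM with control siRNA, a ratio of 0.771. LINC00493, which encodes the mitochondrial protein SMIM26, was at 28.4 and 36.4 FPKM in the same order.

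Of the 14 members with a mean of at least 10 FPKM, 12 were below 0 and 3 were at least 1.5-fold lower. FGD5-AS1 was at 16.8 FPKM with SRSF1 siRNA and 22.4 FPKM with control siRNA, a ratio of 0.751 (0.702 to 0.803). LINC00467 was at 10.8 and 17.6 FPKM in the same order, a ratio of 0.617 (0.474 to 0.800). LINC00938 was at 7.69 FPKM with SRSF1 siRNA and 13.0 FPKM with control siRNA, a ratio of 0.591 (0.521 to 0.670). NCBP2-AS2, beside the cap-binding protein gene NCBP2, was at 8.02 and 12.1 FPKM in the same order, a ratio of 0.662 (0.564 to 0.775), while NCBP2 was at 50.1 and 59.6 FPKM. EPB41L4A-AS1 was at 15.9 FPKM with SRSF1 siRNA and 17.3 FPKM with control siRNA, and THAP9-AS1 at 14.1 and 15.6 FPKM in the same order. MMP24-AS1 (MMP24OS, which encodes a small protein) was at 16.3 FPKM with SRSF1 siRNA and 15.3 FPKM with control siRNA, and NUTM2A-AS1 at 11.2 and 10.7 FPKM in the same order. OIP5-AS1, the human counterpart of the zebrafish RNA cyrano, was at 10.6 FPKM with SRSF1 siRNA and 13.0 FPKM with control siRNA, a ratio of 0.815.

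**Figure D2:**
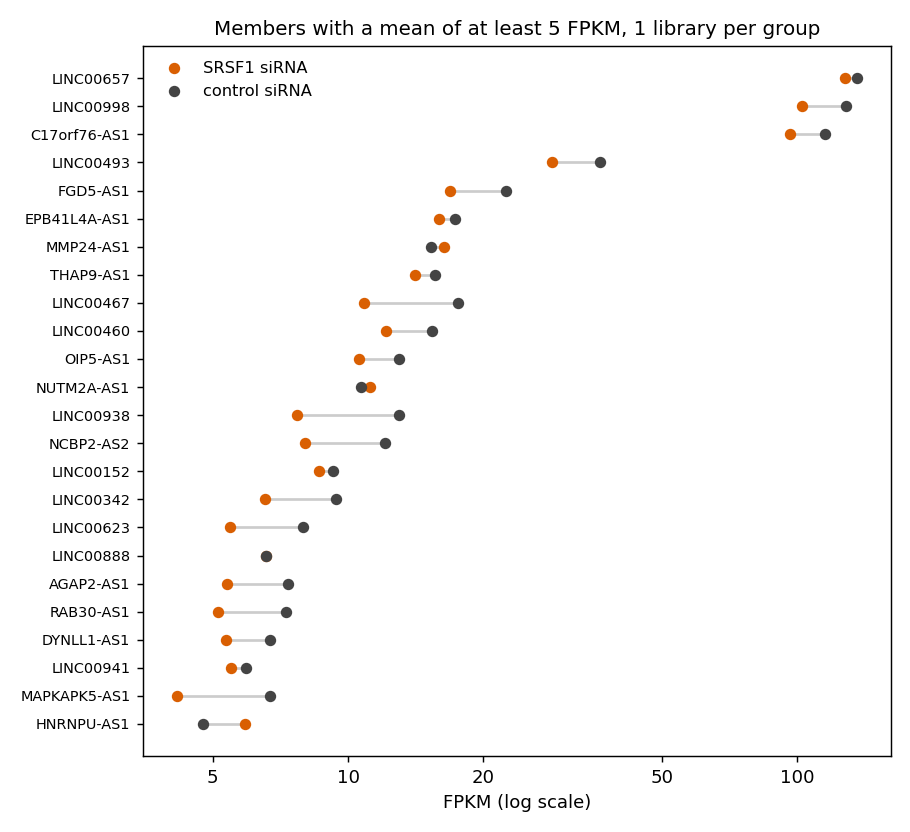
FPKM on a log axis for the 24 members with a mean of at least 5 FPKM, 1 library per group, SRSF1 siRNA in orange and control siRNA in dark grey, joined by a line. In 21 of 24 members the SRSF1 siRNA point lies left of the control point; MMP24-AS1, NUTM2A-AS1 and HNRNPU-AS1 run the other way.

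The lowest relative level was that of LINC00263, named OLMALINC after its role in oligodendrocyte maturation, which lies at chr10:100373513-100454043 on the plus strand in GENCODE 29 (GRCh38). It was at 0.934 FPKM with SRSF1 siRNA, 22 recovered fragments, and 4.68 FPKM with control siRNA, 107 fragments. Its ratio of 0.199 (0.12 to 0.318) was below that of SRSF1 itself. LINC01003, at chr7:152463786-152465549, was at 1.18 FPKM with SRSF1 siRNA and 3.86 FPKM with control siRNA, a ratio of 0.306 (0.209 to 0.439). LINC00963, which has been studied in several carcinomas, was at 1.13 and 2.94 FPKM in the same order, a ratio of 0.384 (0.277 to 0.525). None of these 3 LINC loci shares an exon base with another GENCODE gene.

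Of the 10 lowest members 7 were antisense rows, as were 114 of all 155. KDM4A-AS1, opposite the histone demethylase gene KDM4A, was at 0.240 FPKM with SRSF1 siRNA and 1.04 FPKM with control siRNA, a ratio of 0.230 (0.0977 to 0.483). PITPNA-AS1, opposite the phosphatidylinositol transfer protein gene PITPNA, was at 1.29 and 4.37 FPKM in the same order, a ratio of 0.294 (0.160 to 0.514). CKMT2-AS1 was at 0.627 FPKM with SRSF1 siRNA and 1.88 FPKM with control siRNA, a ratio of 0.334 (0.228 to 0.480). Its sense gene, the sarcomeric mitochondrial creatine kinase gene CKMT2, was listed at 0 in both libraries. RBM26-AS1 was at 0.441 FPKM with SRSF1 siRNA and 1.26 FPKM with control siRNA, a ratio of 0.350 (0.170 to 0.676). HOXB-AS5 was at 0.297 FPKM with SRSF1 siRNA and 0.920 FPKM with control siRNA, on 1 and 3 fragments, and LINC01023 at 0.288 and 0.890 FPKM in the same order. Both intervals included 1. Of the 20 members at least 2-fold lower, 16 had an interval below 1. KDM4A-AS1, RBM26-AS1, HOXB-AS5 and LINC01023 were under 0.5 FPKM with SRSF1 siRNA and reached the minimum through their control value. The same held for LINC00266-1 above and for DICER1-AS1 and TMPO-AS1 below. Rows of this kind cannot serve as support for a fall.

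Of the 10 highest members, 7 were LINC rows, where 41 of all 155 members were. LINC00641, at chr14:21200079-21206900 on the minus strand, was at 1.38 FPKM with SRSF1 siRNA, 178 fragments, and 0.597 FPKM with control siRNA, 75 fragments. Its ratio of 2.30 (1.75 to 3.06) was the only one past 2-fold upward. LINC00476, now ERCC6L2-AS1, was at 1.01 and 0.582 FPKM in the same order, a ratio of 1.73 (1.36 to 2.21). MFI2-AS1, now MELTF-AS1, was at 1.16 FPKM with SRSF1 siRNA and 0.637 FPKM with control siRNA, a ratio of 1.82 with an interval of 0.960 to 3.57 that included 1. LINC00997 was at 2.04 FPKM with SRSF1 siRNA and 1.44 FPKM with control siRNA, a ratio of 1.42 (1.16 to 1.76). LINC00869, LINC00085 (SPACA6), ASB16-AS1, ZNF503-AS2, LINC00969 and LINC00294 complete the 10 highest, each short of 1.5-fold on the log2(FPKM + 0.1) scale.

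**Figure D3:**
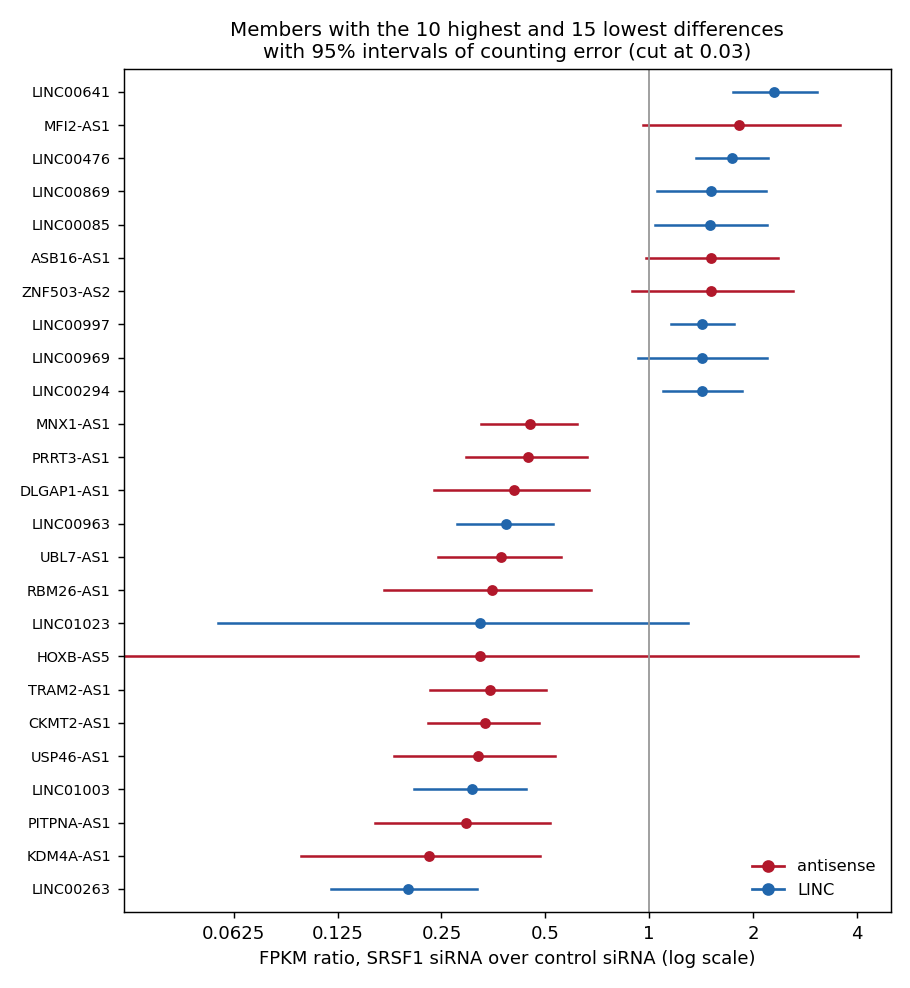
Plain FPKM ratio, SRSF1 siRNA over control siRNA, on a log axis for the 10 highest and 15 lowest members by difference in log2(FPKM + 0.1); bars are exact 95% intervals of counting error, red for antisense and blue for LINC rows. LINC00641 (2.30) is highest and LINC00263 (0.199) lowest, and the bars of HOXB-AS5 and LINC01023 in the lower group cross 1.

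Each antisense row was set beside its sense gene, the symbol without its antisense ending. Of the 114 antisense rows, 109 had such a row in the table and 89 had one with a mean of at least 0.5 FPKM, covering 87 sense genes. Whether counting used strand is not given in the sources used here, so where the 2 genes overlap their reads cannot be told apart. Over the 89 pairs the antisense rows had a median difference of -0.48 and the sense genes -0.11. The antisense row had the lower difference of the 2 in 68 pairs (76.4%). Both were below 0 in 44 pairs and both above 0 in 4, while the antisense row was below 0 with the sense gene above in 29 and the reverse held in 12. Sense genes at least 1.5-fold lower numbered 4, and 1 was higher. Of the 37 pairs whose antisense row was at least 1.5-fold lower, the sense gene was also lower in 2, LBX2 and CHKB, higher in 1, DICER1, and within 1.5-fold in 34. Of all mRNA rows at the minimum, 6.19% were at least 1.5-fold lower and 1.75% higher. Most mRNA rows were thus within 1.5-fold too, so the 34 sense genes are no result about the pairs. Across pairs the differences had a Spearman correlation of 0.02, a description over pairs that share both libraries.

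**Figure D4:**
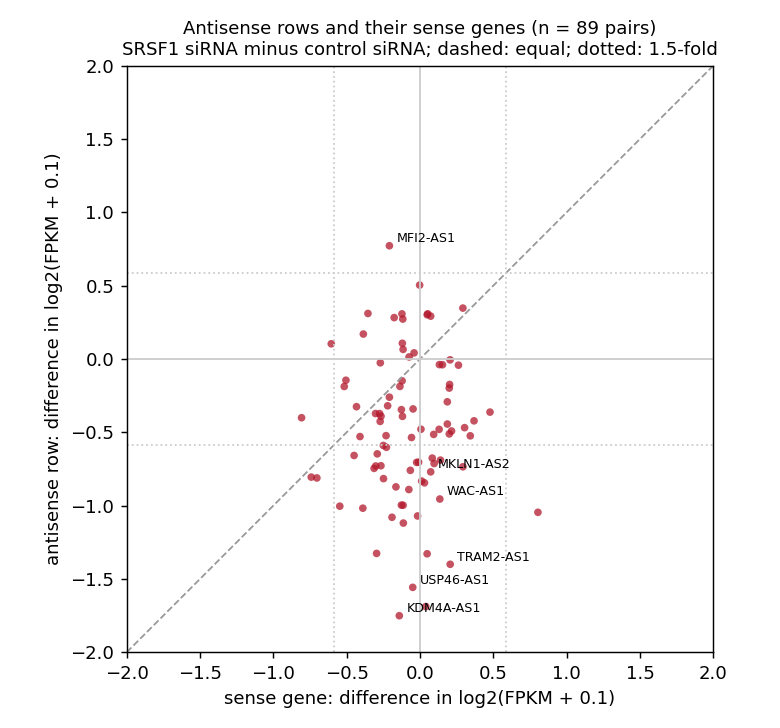
Difference between libraries on the log2(FPKM + 0.1) scale (SRSF1 siRNA minus control) of each antisense row (vertical axis) against its sense gene (horizontal axis) for 89 pairs; the dashed line marks equal differences and dotted lines 1.5-fold. In 68 of 89 pairs the point lies below the dashed line, and few sense genes pass the vertical dotted lines.

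KDM4A was at 9.82 FPKM with SRSF1 siRNA and 10.8 FPKM with control siRNA, a ratio of 0.906, beside the 0.230 of its antisense row. PITPNA was at 30.5 and 29.7 FPKM in the same order, a ratio of 1.03. WAC-AS1 was at 2.46 FPKM with SRSF1 siRNA and 4.87 FPKM with control siRNA, a ratio of 0.506 (0.415 to 0.615). WAC, an adaptor for histone H2B ubiquitination, was at 52.9 and 48.1 FPKM in the same order, a ratio of 1.10. In these 3 pairs the interval of the antisense ratio lay below that of the sense gene. KDM4A-AS1 and PITPNA-AS1 were named for the size of their falls and WAC-AS1 after its values were seen. KDM4A-AS1 also reached the minimum through its control value, so this order is a description and no support for a fall.

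By the values alone, DICER1 was the sense gene that ran furthest against its antisense row. That row reached the minimum through its control value and its interval included 1, so the ranking is a description only. DICER1-AS1 was at 0.418 FPKM with SRSF1 siRNA and 0.969 FPKM with control siRNA, 8 and 18 fragments, with an interval of 0.162 to 1.04 for its ratio of 0.431. DICER1, the microRNA-processing ribonuclease gene, was at 24.8 FPKM with SRSF1 siRNA and 14.2 FPKM with control siRNA, a ratio of 1.75 (1.68 to 1.83). VIM-AS1 was lower together with its sense gene: it was at 2.21 FPKM with SRSF1 siRNA and 4.52 FPKM with control siRNA, and VIM, a mesenchymal intermediate filament gene, at 3.35 and 4.95 FPKM in the same order. HNRNPU-AS1 ran the other way, at 5.91 FPKM with SRSF1 siRNA and 4.75 FPKM with control siRNA, a ratio of 1.24 (1.11 to 1.39), while HNRNPU was at 187 and 239 FPKM in the same order. RefSeq now merges the name HNRNPU-AS1 into HNRNPU, so that row's identity is uncertain.

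The position of the antisense start relative to the sense gene was taken from GENCODE 29. Of the 114 rows 104 could be placed. Divergent rows, which start upstream of the sense gene and run away from it, had a median of -0.51 with 11 of 27 at least 1.5-fold lower. Rows whose 5′ part overlaps that of the sense gene had a median of -0.51 with 16 of 35 lower. Rows overlapping at the 3′ ends had -0.33 with 7 of 25 lower, rows inside the sense gene -0.48 with 5 of 12 lower, and the 5 rows spanning it 0.07. Among the 25 divergent pairs, 24 had starts within 1000 bases of each other, with a median distance of 154 bases. Their antisense rows had a median of -0.52 and their sense genes -0.06, with 11 antisense rows and 1 sense gene at least 1.5-fold lower. Of all mRNA rows 6.19% were that much lower, with a median of -0.06. The divergent sets are small and no test was made between positions.

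Because these divergent pairs share the stretch of DNA between their starts, the promoters of 3 of the lowest are shown, with those of the lowest and highest LINC rows for comparison. Each is the RefSeq window on GRCh38.p14 from 250 bases before the start of the noncoding RNA to 50 after it, on the RNA's own strand. Capitals mark the GC box (GGGCGG), the CCAAT box, an ETS motif (CCGGAAG) and a TATA box (TATAAA), each searched on both strands. USP46-AS1 (chr4:52659156-52659455, plus strand) starts 105 bases from the start of USP46, TRAM2-AS1 (chr6:52576952-52577251, plus strand) 142 bases from that of TRAM2, and UBL7-AS1 (chr15:74461015-74461314, plus strand) 77 bases from that of UBL7. LINC00263 is at chr10:100373326-100373625 on the plus strand and LINC00641 at chr14:21206851-21207150 on the minus strand.
USP46-AS1: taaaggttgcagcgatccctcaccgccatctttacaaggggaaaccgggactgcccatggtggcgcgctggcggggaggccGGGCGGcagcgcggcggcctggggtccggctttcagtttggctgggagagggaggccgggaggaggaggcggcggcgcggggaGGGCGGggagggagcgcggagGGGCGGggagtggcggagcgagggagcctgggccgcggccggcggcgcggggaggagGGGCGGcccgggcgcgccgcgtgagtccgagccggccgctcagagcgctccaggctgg
TRAM2-AS1: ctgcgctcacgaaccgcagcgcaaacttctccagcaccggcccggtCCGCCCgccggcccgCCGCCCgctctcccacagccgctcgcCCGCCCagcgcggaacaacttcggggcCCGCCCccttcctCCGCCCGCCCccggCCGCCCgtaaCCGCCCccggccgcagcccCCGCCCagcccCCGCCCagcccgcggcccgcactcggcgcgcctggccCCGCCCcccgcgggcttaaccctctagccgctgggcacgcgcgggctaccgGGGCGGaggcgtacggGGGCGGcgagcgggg
UBL7-AS1: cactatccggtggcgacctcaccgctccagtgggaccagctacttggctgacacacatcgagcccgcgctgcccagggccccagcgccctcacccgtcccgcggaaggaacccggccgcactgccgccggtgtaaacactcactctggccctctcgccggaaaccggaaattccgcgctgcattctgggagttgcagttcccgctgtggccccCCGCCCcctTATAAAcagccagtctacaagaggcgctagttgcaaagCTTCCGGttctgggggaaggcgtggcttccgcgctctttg
LINC00263: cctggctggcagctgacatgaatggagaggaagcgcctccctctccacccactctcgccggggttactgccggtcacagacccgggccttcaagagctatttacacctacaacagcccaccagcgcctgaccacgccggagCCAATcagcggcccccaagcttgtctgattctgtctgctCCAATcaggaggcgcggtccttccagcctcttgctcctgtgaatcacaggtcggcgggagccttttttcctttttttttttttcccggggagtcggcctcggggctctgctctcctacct
LINC00641: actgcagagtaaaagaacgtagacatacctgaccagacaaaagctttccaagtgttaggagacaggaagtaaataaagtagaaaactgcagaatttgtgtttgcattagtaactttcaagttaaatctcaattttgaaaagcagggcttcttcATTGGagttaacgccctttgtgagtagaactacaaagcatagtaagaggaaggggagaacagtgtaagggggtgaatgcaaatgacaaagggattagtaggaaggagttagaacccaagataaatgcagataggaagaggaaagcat

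The 3 divergent promoters are rich in CpG, with 39 in that of USP46-AS1, 49 in that of TRAM2-AS1 and 26 in that of UBL7-AS1, and each holds a GC box. The LINC00263 promoter holds 16 CpG and that of LINC00641 holds 2. USP46-AS1, now USP46-DT for divergent transcript, was at 0.969 FPKM with SRSF1 siRNA and 3.05 FPKM with control siRNA, a ratio of 0.318 (0.182 to 0.535). USP46, a deubiquitinase gene on the other side of that promoter, was at 4.51 and 4.68 FPKM in the same order, a ratio of 0.966 (0.843 to 1.11). TRAM2-AS1 was at 0.623 FPKM with SRSF1 siRNA and 1.81 FPKM with control siRNA, a ratio of 0.345 (0.231 to 0.503). TRAM2, which acts at the endoplasmic reticulum translocon, was at 4.66 and 4.03 FPKM in the same order, a ratio of 1.16 (1.04 to 1.29). UBL7-AS1 was at 0.871 FPKM with SRSF1 siRNA and 2.34 FPKM with control siRNA, a ratio of 0.373 (0.245 to 0.557), and the ubiquitin-like protein gene UBL7 at 9.35 and 11.5 FPKM, a ratio of 0.813 (0.700 to 0.944). In all 3 pairs the interval of the antisense row lay below that of its sense gene. The 3 were taken as the largest falls among divergent rows whose interval lay below 1. A low antisense interval was therefore fixed by that choice, and this order is no support for a fall.

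A promoter was found for 133 members, 45 of them at least 1.5-fold lower. The GC box was in 55.6% of those 45 promoters and 60.2% of the other 88, and in 45.0% of all 35116 RefSeq promoters of the same length. The ETS motif was in 26.7% of the 45, 18.2% of the 88 and 10.3% of all. The CCAAT box was in 42.9% of the members' promoters and 34.6% of all, and TATAAA in 3.01% of the members' promoters and 11.5% of all. The median number of CpG was 27 in the 45, 23 in the 88 and 14 in all. These are matches of letters, not binding sites.

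The purine-rich GGAGA, a motif found in SRSF1 crosslinking studies, was counted in the longest GENCODE transcript of the 147 members that GENCODE lists. For HNRNPU-AS1, matched by name to HNRNPU, that was a transcript of HNRNPU. The median density of GGAGA was 1.73 per kilobase in the 51 members at least 1.5-fold lower and 1.46 in the other 96. It was 1.72 in 13440 GENCODE lincRNA and antisense genes and 1.85 in 16529 protein-coding genes. The first 300 bases held it in 58.8% of the lower members, 44.8% of the others and 45.8% of the lincRNA and antisense genes. The density in the lower members was close to that of noncoding genes as a whole.

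The 44 members with no exon base shared with another GENCODE gene had a median of -0.49, with 17 at least 1.5-fold lower and 1 higher. The 103 members with shared bases had a median of -0.37, with 34 lower and 2 higher. By RefSeq class, 137 members are long noncoding RNAs, with a median of -0.43, and 13 are now protein-coding, with a median of -0.32 and 2 lower. HNRNPU-AS1 entered both groupings as HNRNPU. Members at least 1.5-fold lower were present in both sets. Sharing was judged on GENCODE exons only. Overlap within introns, or between the gene models used for counting, was not tested.

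Of 46 long noncoding RNAs listed for their study in colorectal or other carcinomas, 21 were members, with a median of -0.29 and 17 below 0. At least 1.5-fold lower were 6, MNX1-AS1, ZEB1-AS1, LINC00467, LINC00963, FEZF1-AS1 and LINC00339, and none was higher. MNX1-AS1, beside the homeobox gene MNX1, was at 2.51 FPKM with SRSF1 siRNA and 5.56 FPKM with control siRNA, a ratio of 0.451 (0.325 to 0.618). MNX1 was at 3.74 and 4.05 FPKM in the same order. ZEB1-AS1 was at 2.88 FPKM with SRSF1 siRNA and 4.71 FPKM with control siRNA, a ratio of 0.612 (0.496 to 0.753). ZEB1, a repressor of epithelial genes, was at 108 and 98.3 FPKM in the same order. LINC00152, now CYTOR, was at 8.61 FPKM with SRSF1 siRNA and 9.25 FPKM with control siRNA, and LINC00460 at 12.2 and 15.4 FPKM in the same order. The 6 of 21 is a larger share than the 8.52% of all rows and a smaller one than the 34.2% of all members.

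Among 8 antisense members of replication, repair and cell cycle genes, 3 were at least 1.5-fold lower, a share near the 38.6% of all antisense rows. PAXIP1-AS1, beside the gene of a DNA damage response adaptor, was at 1.53 FPKM with SRSF1 siRNA and 3.16 FPKM with control siRNA, a ratio of 0.485, while PAXIP1-AS2 of the same gene was at 1.96 and 1.87 FPKM in the same order. MAPKAPK5-AS1 was at 4.16 and 6.71 FPKM in the same order, a ratio of 0.620 (0.523 to 0.735). TMPO-AS1 was at 0.398 FPKM with SRSF1 siRNA and 0.711 FPKM with control siRNA, while TMPO, a nuclear lamina gene, was at 196 and 197 FPKM in the same order. Of the 5 HOX cluster antisense members 3 were below 0, and HOXB-AS1 and HOXB-AS5 were at least 1.5-fold lower, the second on 1 and 3 fragments with an interval that included 1. The 3 members listed for encoding small proteins, LINC00998, LINC00493 and LINC00116 (the mitochondrial microprotein MTLN), were all within 1.5-fold, with LINC00116 at 2.28 FPKM with SRSF1 siRNA and 2.86 FPKM with control siRNA. NCBP2-AS2, outside that list but protein-coding in RefSeq, was at least 1.5-fold lower, with a difference of -0.59.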

How the data were processed

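RKO RNA was sequenced from 1 library per group. The authors deposited FPKM values per gene and mapping statistics (counts of reads and percent of reads, per the file headers). Reads were aligned to hg19 with Bowtie 0.12.2, per the submitters' processing notes; the labels do not state the counting tool, strand setting, annotation or filters. From the deposited FPKM, differences in log2(FPKM + 0.1) were computed over rows with a mean of at least 0.5 FPKM, with 2-fold and 1.5-fold size rules and no test. Whole fragments came out for 16231 of 16235 rows above 0 in both libraries (relative tolerance 2e-12), as the smallest numbers that fit. A true count may be a multiple, and the true gene model length the same multiple of that recovered. The exact Clopper-Pearson 95% intervals may then be too wide. No count model was run, since 1 library per group leaves no residual degrees of freedom. PCR copies are not independent molecules. RefSeq (GRCh38.p14) and GENCODE 29 (GRCh38) gave symbols, positions and promoters only; all 155 members matched RefSeq, 56 under another symbol. Members named are those at a mean of 10 FPKM and over, the 10 highest and 10 lowest differences, list members and those nearest the minimum; UBL7-AS1, WAC-AS1, DICER1-AS1, VIM-AS1, HNRNPU-AS1 and the list members under 1 FPKM were chosen after their values were seen. The members and lists were chosen with earlier results of these data known. Alternatives were pseudocounts of 0.5 and 1, minimums of 1 and 5 FPKM or none, rescaling, quantile normalization, centring, and, added after seeing the data, removal of the length and level trend. The procedure was tested on simulated data. The values of 1 member are not reported here. Python 3.11.15, NumPy 2.4.6, pandas 2.3.3, SciPy 1.17.1, statsmodels 0.14.6 and matplotlib 3.10.9 were used.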

Additional observations from a re-analysis of the deposited data

How the results depend on the processing

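No paired analysis was possible because each group had 1 library, and no replicate could be left out. The antisense and LINC medians and the SRSF1 difference stayed below 0 under every alternative run. The median over all rows, -0.07, became 0.014 with quantile normalization and 0.0039 with the length and level trend removed. The 1.5-fold lower count of 53 became 22 with a pseudocount of 1, when 4.23% of all rows were that much lower, 4 of 24 members at a minimum of 5 FPKM, 130 of 451 with no minimum and 34 with the length and level trend removed, when 5.58% of all rows were. Of all rows, 4.20% were that much lower at 5 FPKM and 11.1% with no minimum. The 1.5-fold higher count of 3 became 0 with a pseudocount of 1, 1 with 0.5, and 0 at minimums of 1 and 5 FPKM. It became 26 of 451 with no minimum, 10 with quantile normalization, 6 with centring and 9 with the trend removed. In the same order, 6.41%, 4.67%, 4.13% and 4.65% of all rows were that much higher. Under these 4 alternatives members were higher about as often as all rows, or more often. The 2-fold lower count of 20 became 4 and 11 with pseudocounts of 1 and 0.5, 0 at 5 FPKM, 42 with no minimum and 13 with the trend removed. Over all rows it was 67 and 130 of 12397 with those pseudocounts and 36 of 7646 at 5 FPKM. With no minimum 669 of 18648 rows were 2-fold lower, and 166 of 12397 with the trend removed. The 2-fold higher count of 1 became 0 with both pseudocounts and at minimums of 1 and 5 FPKM. With no minimum it was 6 of 451 members and 476 of 18648 rows. The antisense median of -0.43 became -0.29 with a pseudocount of 1, -0.29 at 5 FPKM, -0.33 with quantile normalization and -0.29 with the trend removed. The LINC median of -0.32 became -0.18 with no minimum, -0.20 with quantile normalization and -0.21 with the trend removed. Pairs in the same direction, 48 of 89, were 27 of 55 at 1 FPKM, 2 of 5 at 5 FPKM and 148 of 283 with no minimum. The SRSF1 difference of -1.65 became -1.59 with quantile normalization and -1.59 with centring. Over all rows, 1056 were 1.5-fold lower and 379 higher; quantile normalization gave 742 and 579, centring 833 and 512, and trend removal 692 and 576. Of 327 values of 40 named members under 9 alternatives, 324 kept their sign, the others being of EPB41L4A-AS1, LINC00152 and LINC00941. A change of pseudocount or minimum cannot change the sign of a row, so those values kept theirs by construction. The 10 highest and 10 lowest members were also named for the size of their differences. The median member rested on 97 control fragments, which limits the differences detectable at this depth.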

Other observations

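Of 35 listed long noncoding RNAs with other kinds of names, 22 had a mean of at least 0.5 FPKM, with a median difference of -0.12, 3 at least 1.5-fold lower and 1 higher. Over all rows the median was -0.07, with 8.52% lower and 3.06% higher by that rule. NEAT1, the scaffold of paraspeckles, was at 34.9 FPKM with SRSF1 siRNA and 68.2 FPKM with control siRNA, a ratio of 0.512 (0.464 to 0.565). MALAT1, its neighbour and a nuclear speckle RNA, was at 93.2 and 96.4 FPKM in the same order, a ratio of 0.968. MIR17HG, the host of the miR-17 cluster, was at 2.55 FPKM with SRSF1 siRNA and 4.33 FPKM with control siRNA, and HOTAIR at 0.372 and 0.694 FPKM in the same order. MIR22HG, the host of miR-22, was at 8.39 FPKM with SRSF1 siRNA and 4.82 FPKM with control siRNA, a ratio of 1.74 (1.51 to 2.01). GAS5, a snoRNA host, was at 140 FPKM with SRSF1 siRNA and 130 FPKM with control siRNA.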
